A study of Mus musculus with 6 samples.

Results

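The genes described here encode proteins of the cytosolic ribosome and the initiation and elongation factors that work with it. They were taken by gene name from the 1375 genes of a deposited table, all of which the authors had listed as higher in the prefrontal cortex of mice that responded to ketamine than in mice that did not. The names searched were those of ribosomal proteins of the large subunit (Rpl and a number, or Rplp0 to Rplp2) and the small subunit (Rps and a number, or Rpsa) and those beginning with Eif and a digit or with Eef1 or Eef2. Names of pseudogenes that carry -ps were left out, among them 5 that begin with Rpl or Rps. The search gave 46 of the 1375 genes, namely 27 ribosomal proteins and 19 genes named as factors. GENCODE M21, the mouse gene annotation on build GRCm38 (mm10), holds 80 coding ribosomal protein genes and 68 coding factor genes under the same names. The rest of these were not analysed here.

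The animals were male C57BL/6J mice, siblings kept 3 to a cage, and all 6 had been injected intraperitoneally with ketamine at 10 mg/kg, a drug that blocks NMDA-type glutamate receptors and relieves depression within hours. Prefrontal cortex was taken 24 hours after the injection, and polyA RNA from each animal was sequenced as a library of its own. Forced swimming and novelty suppressed feeding had divided the animals by behaviour into 3 nonresponders and 3 responders. All libraries carry the same batch number, the ages are not in the labels, and no untreated mice were among the samples, so both groups are animals exposed to ketamine.

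Ribosomal proteins are the many small, basic proteins that are assembled on ribosomal RNA into the large and the small subunit, and nearly every cell makes them in matched amounts. Initiation factors bring the small subunit to the capped mRNA and find the start codon, and elongation factors deliver aminoacyl-tRNAs to the assembled ribosome. Ribosomal protein mRNAs and several factor mRNAs begin with a run of pyrimidines, the 5′ terminal oligopyrimidine (TOP) tract, through which mTOR signalling governs their translation. Work in rodents has tied the rapid behavioural effect of ketamine to protein synthesis in forebrain neurons, through mTOR and through the kinase of elongation factor eEF2.

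The sequence that most of the ribosomal members share lies around the start of transcription. The stretches below are 30 bases long and come from the promoters that RefSeq gives on GRCm38.p6. They begin at differing places, for instance 12 bases before the start in Rpl15 and 19 bases after it in Rpl36a. They are shown 5′ to 3′ on the strand of the gene, with capitals marking unbroken runs of at least 8 pyrimidines, and they were chosen as examples of both ribosomal subunits, with and without such a run.
Rpl36a, chrX:134585673-134585702, plus strand: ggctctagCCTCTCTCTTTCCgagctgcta
Rpl35a, chr16:33056469-33056498, plus strand: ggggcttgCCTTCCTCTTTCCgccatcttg
Rpl26, chr11:68901579-68901608, plus strand: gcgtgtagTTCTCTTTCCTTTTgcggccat
Rpl15, chr14:18270969-18270998, minus strand: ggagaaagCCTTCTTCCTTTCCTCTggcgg
Rpl7a, chr2:26910787-26910816, plus strand: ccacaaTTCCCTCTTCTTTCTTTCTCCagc
Rps26, chr10:128626482-128626511, minus strand: ccgccggaTCCTCTTTCgagtcttggctcc
Rps15a, chr7:118116138-118116167, minus strand: gcccaCTCTCTTTCTgccaTCTTCCCTCgc
Rplp0, chr5:115559457-115559486, plus strand: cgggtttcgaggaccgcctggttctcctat
Rps13, chr7:116334171-116334200, minus strand: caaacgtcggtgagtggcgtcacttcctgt
The factor genes below are shown for comparison, 2 with a run and 2 without.
Eef1a1, chr9:78481708-78481737, minus strand: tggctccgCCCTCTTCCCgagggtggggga
Eif4e, chr3:138527248-138527277, plus strand: tcctctcgCCCCCCCTTCaggagcggttgt
Eif4a2, chr16:23107458-23107487, plus strand: gaaaccccgtaggagcagggcggccgagga
Eef1b2, chr1:63176821-63176850, plus strand: ctgcagttccgccggaagtagccgaggcct

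Of the 46 members, 32 had a promoter in the RefSeq table, 19 of them ribosomal. The window searched ran from 20 bases before to 50 bases after the start, on the strand of the gene, and a gene with several starts counted once if any of them held the run. A run of at least 8 pyrimidines was present in 16 of the 19 ribosomal genes and in 4 of the 13 factor genes. Over all 27025 genes of that table the share was 28.5%, and over the listed genes that are no members it was 26.2%. The letters CTTTC, chosen as a motif after these windows had been read and contained in many of the runs, occurred in 12 of the 19 ribosomal genes and in 2 of the 13 factor genes, beside 10.4% of all genes. Their reverse complement GAAAG occurred in 2 of the 19, in 1 of the 13, and in 10.2% of all genes. The main mRNAs of GENCODE M21 as annotated began with the tract (C and at least 4 more pyrimidines) in 4 of the 27 ribosomal genes and in 1 of the 19 factor genes, beside 2.23% of the listed coding genes. These matches describe the letters in the windows, and translation was not measured.

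The values are the authors' read counts per gene and FPKM values (fragments per kilobase of the gene's deposited length and per unit of library size). The scale that converts a library's counts into FPKM lay between 14981505 and 19298950 reads. The listed genes alone held between 1989534 and 3486903 reads per library. The smallest scale and the most listed reads both belonged to responder replicate 3. Member genes held between 58 and 46535 reads each, so all 46 were well above 0 in every library. The deposited gene lengths were a median of 1.95 times (range 1.21 to 7.18) the length of the main mRNA in the ribosomal genes and 1.39 times (range 1.00 to 4.46) in the factor genes. FPKM therefore understates short mRNAs with long deposited lengths such as Rpl35a and Rpl22, and levels of different genes are compared here only on that FPKM scale. Responder replicate 3 stood out among the 6 libraries. It was the highest library in 87.6% of the listed genes and in all 46 members, and values are given below with and without it.

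By selection, all listed genes had a higher mean in responders, so the direction is not a result, and only the sizes and the spread between mice are described. An adjusted p-value below 0.05 was given to 1.38% of the listed genes by the authors' deposited table, and to 0 of the 46 members. Their adjusted p-values lay between 0.119 (Eef1e1) and 0.328 (Eef1g and Rpl21). The read counts of the whole table were also refitted with edgeR's quasi-likelihood test. With all 6 libraries, 0 of the 1375 listed genes, and so 0 members, had an adjusted p below 0.05. An unadjusted p below 0.05 was found for 16 members, beside 26.5% of the listed genes. Of the 16, 13 were ribosomal and 3 were factors (Eef1b2, Eef1e1 and Eif3h). DESeq2 gave 0 and 26 members at the same limits, with 42.5% of the listed genes at the unadjusted limit. Its share of the listed genes at the adjusted limit is not given. The 3 responders all exceeded the 3 nonresponders in 42 of the 46 members, beside 73.5% of the listed genes, and the members whose groups overlapped included Rps27l, Eif1a and Eif2s2.

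The ribosomal proteins had larger median differences than the factors. The median log2 difference between responder and nonresponder mean FPKM was 0.70 for the 27 ribosomal proteins, 0.50 for the 13 initiation factors and 0.43 for the 4 elongation factors, beside 0.57 for all listed genes. Scaling the libraries on the listed genes themselves (TMM factors) moved the median of all listed genes from 0.57 to 0.02, and with it the ribosomal median to 0.12, the initiation median to -0.05 and the elongation median to -0.10. Relative to the listed genes as a whole, the ribosomal proteins were thus above the median and both kinds of factor below it under either scaling. On that TMM scale 15 members lay below 0, namely 3 ribosomal proteins and 12 factors, beside 44.7% of the listed genes. Whether the ribosomal genes differ from other listed genes was not tested, because genes measured in the same mice are not independent.

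Summed over the 27 ribosomal genes, FPKM was 1675, 1587 and 1582 in the nonresponders and 1882, 1962 and 4716 in the responders. The first 2 responders therefore lay above all nonresponders by a small margin and responder replicate 3 far above them. Ribosomal protein reads made up 2.72%, 2.72% and 2.58% of the listed reads in the nonresponders and 2.75%, 2.62% and 3.99% in the responders. As a share of the listed reads, then, responder replicates 1 and 2 lay close to or within the nonresponder range and replicate 3 outside it. The 19 factor genes summed to 1270, 1224 and 1248 FPKM in the nonresponders and to 1355, 1547 and 2413 FPKM in the responders. In bulk tissue, more cells rich in these mRNAs and more of these mRNAs per cell cannot be told apart.

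**Figure D1:**
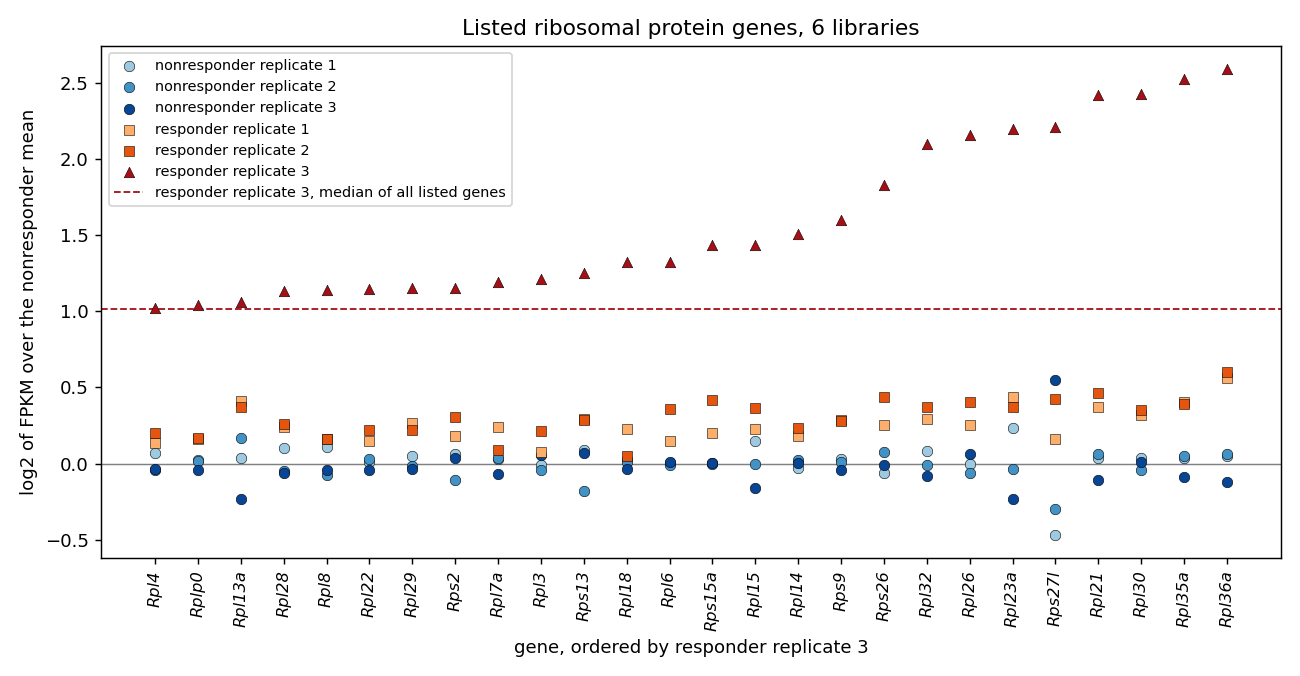
FPKM of 26 listed ribosomal protein genes in each of the 6 libraries, as log2 over the mean of the 3 nonresponders (y axis), with the genes ordered by responder replicate 3 (x axis). Points are single libraries. The dashed line at 1.02 is the median of all listed genes in responder replicate 3, and all 26 genes drawn lie above it, while responder replicates 1 and 2 stay at or below 0.60.

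The large subunit accounted for 20 of the 27 ribosomal genes. The most abundant on the FPKM scale was Rpl4 (chr9:64173375-64178666), whose product lines part of the tunnel through which the new chain leaves. It stood at 177, 164 and 165 FPKM in the nonresponders and at 185, 194 and 342 FPKM in the responders. Rpl8, a protein near the peptidyl transferase centre, stood at 134, 118 and 121 FPKM in the nonresponders and at 139, 139 and 274 FPKM in the responders. Rpl29 stood at 114, 109 and 108 FPKM in the nonresponders and at 133, 128 and 245 FPKM in the responders. In Rpl4, Rpl8 and Rpl29 all responders lay above all nonresponders, but responder replicates 1 and 2 exceeded the highest nonresponder by little, and responder replicate 3 was 2.03, 2.20 and 2.22 times the nonresponder mean. Means of Rpl4 were 169 ± 7.44 FPKM (SD, n = 3) for the nonresponders and 240.3 ± 88.3 FPKM (SD, n = 3) for the responders.

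Among the large subunit genes the smallest p-values in the authors' deposited table belonged to Rpl15, Rpl6 and Rpl14. Rpl15 stood at 53.8, 48.5 and 43.5 FPKM in the nonresponders and at 56.9, 62.6 and 132 FPKM in the responders. Rpl6 stood at 67.9, 67.1 and 68.02 FPKM in the nonresponders and at 74.96, 86.8 and 169 FPKM in the responders. Rpl14 stood at 79.9, 82.9 and 81.9 FPKM in the nonresponders and at 92.4, 95.7 and 232 FPKM in the responders. Nonresponders were close together in Rpl6 and Rpl14 and more spread in Rpl15, and in each gene responder replicate 3 was more than 2-fold above the nonresponder mean. The adjusted p-value of Rpl15 was 0.144 in the authors' deposited table, that of Rpl6 was 0.163 and that of Rpl14 was 0.178. Rpl18 had the smallest difference of the large subunit genes without responder replicate 3, at 1.10-fold, and stood at 14.2, 14.1 and 13.6 FPKM in the nonresponders and at 16.4, 14.5 and 34.9 FPKM in the responders.

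Rpl36a (chrX:134585654-134588062), which encodes a protein near the exit site for tRNA, differed most in the large subunit. It stood at 30.96, 31.2 and 27.4 FPKM in the nonresponders and at 44.1, 45.3 and 179.6 FPKM in the responders. All responders were above all nonresponders, the first 2 by 1.5-fold on average and responder replicate 3 by 6.02-fold. Means were 29.9 ± 2.13 FPKM (SD, n = 3) for the nonresponders and 89.7 ± 77.9 FPKM (SD, n = 3) for the responders. Its coding sequence of 321 bases has 5 near-identical pseudogene copies in the genome, at 90% identity or more over at least 80% of its length.

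A group of 8 ribosomal genes reached at least 4-fold of the nonresponder mean in responder replicate 3, a limit set after the values were seen. They were Rpl36a, Rpl35a, Rpl30, Rpl21, Rps27l, Rpl23a, Rpl26 and Rpl32, with folds of 4.28 to 6.02. No share of all listed genes at this limit is given, so the group is not shown to be particular to ribosomal genes. The nearest below were Rps26 at 3.56-fold and Rps9 at 3.02-fold, and the remaining ribosomal genes went down to 2.03-fold for Rpl4. Their coding lengths were 255 to 483 bases (median 378), and those of the other 19 were 348 to 1260 bases (median 615).

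Rpl21 (chr5:146832890-146837032) stood at 58.1, 59.1 and 52.4 FPKM in the nonresponders and at 73.1, 77.96 and 303 FPKM in the responders. Rpl35a (chr16:33056453-33060189), a gene mutated in some patients with Diamond-Blackfan anaemia, stood at 19.3, 19.6 and 17.7 FPKM in the nonresponders and at 25.03, 24.8 and 109 FPKM in the responders. In both genes responder replicates 1 and 2 lay above the highest nonresponder by more than the nonresponder range. Rpl23a (chr11:78180932-78183584), which sits at the mouth of the exit tunnel where the signal recognition particle docks, stood at 90.5, 75.1 and 65.5 FPKM in the nonresponders and at 104, 99.8 and 353 FPKM in the responders. Rpl26 (chr11:68901583-68906989), another protein of the tunnel mouth, stood at 79.4, 76.2 and 83.3 FPKM in the nonresponders and at 94.9, 105 and 356 FPKM in the responders. Nonresponders differed more in Rpl23a than in Rpl21, Rpl35a or Rpl26, and nonresponder replicate 1 of Rpl23a came near to the first 2 responders. In all 4 genes the gap between responder replicate 3 and the other responders was far wider than the gap between those responders and the nonresponders. Rpl30 and Rpl32 stood in nonresponders at 18.2 to 19.3 and 64.8 to 72.7 FPKM, and in responder replicate 3 at 101 and 294 FPKM.

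The large subunit genes not yet described were Rpl3, Rpl7a, Rplp0 (the base of the stalk that recruits elongation factors), Rpl28, Rpl22 and Rpl13a, with folds of 2.06 to 2.32 in responder replicate 3 and of 1.11 to 1.31 in the other responders. Of these Rpl13a was the lowest in level, at 4.94, 5.43 and 4.09 FPKM in the nonresponders and at 6.39, 6.22 and 10.1 FPKM in the responders.

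The small subunit was represented by 7 genes, whose log2 differences had a median of 0.79, and of 0.29 when responder replicate 3 was left out. Rps2, near the channel through which the mRNA enters, was the most abundant and stood at 123, 109.7 and 121 FPKM in the nonresponders and at 134, 146 and 262 FPKM in the responders. Rps15a stood at 17.7, 17.6 and 17.7 FPKM in the nonresponders and at 20.3, 23.6 and 47.7 FPKM in the responders. Rps9 (chr7:3703993-3706897) stood at 34.9, 34.4 and 33.2 FPKM in the nonresponders and at 41.6, 41.4 and 103 FPKM in the responders. Nonresponders of Rps15a and Rps9 were nearly equal, and the mean of the first 2 responders was 1.24 and 1.21 times that of the nonresponders. Rps13 stood at 21.3, 17.7 and 21.03 FPKM in the nonresponders and at 24.6, 24.4 and 47.6 FPKM in the responders. Rps26 (chr10:128624534-128626747), which contacts the mRNA upstream of the start codon, stood at 55.2, 60.7 and 57.3 FPKM in the nonresponders and at 68.8, 78.3 and 206 FPKM in the responders. Rps26 differed most of the small subunit genes without responder replicate 3, at 1.27-fold. In Rps13 nonresponder replicate 2 lay below the other nonresponders, and in both genes the first 2 responders lay above the highest nonresponder.

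The groups overlapped in Rps27l. This gene, a paralogue of Rps27 induced by p53, was the least read member and stood at 3.81, 4.28 and 7.68 FPKM in the nonresponders and at 5.88, 7.05 and 24.3 FPKM in the responders. Its nonresponder replicate 3 lay above both of the lower responders. Its reads numbered 58 to 297 per library.

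**Figure D2:**
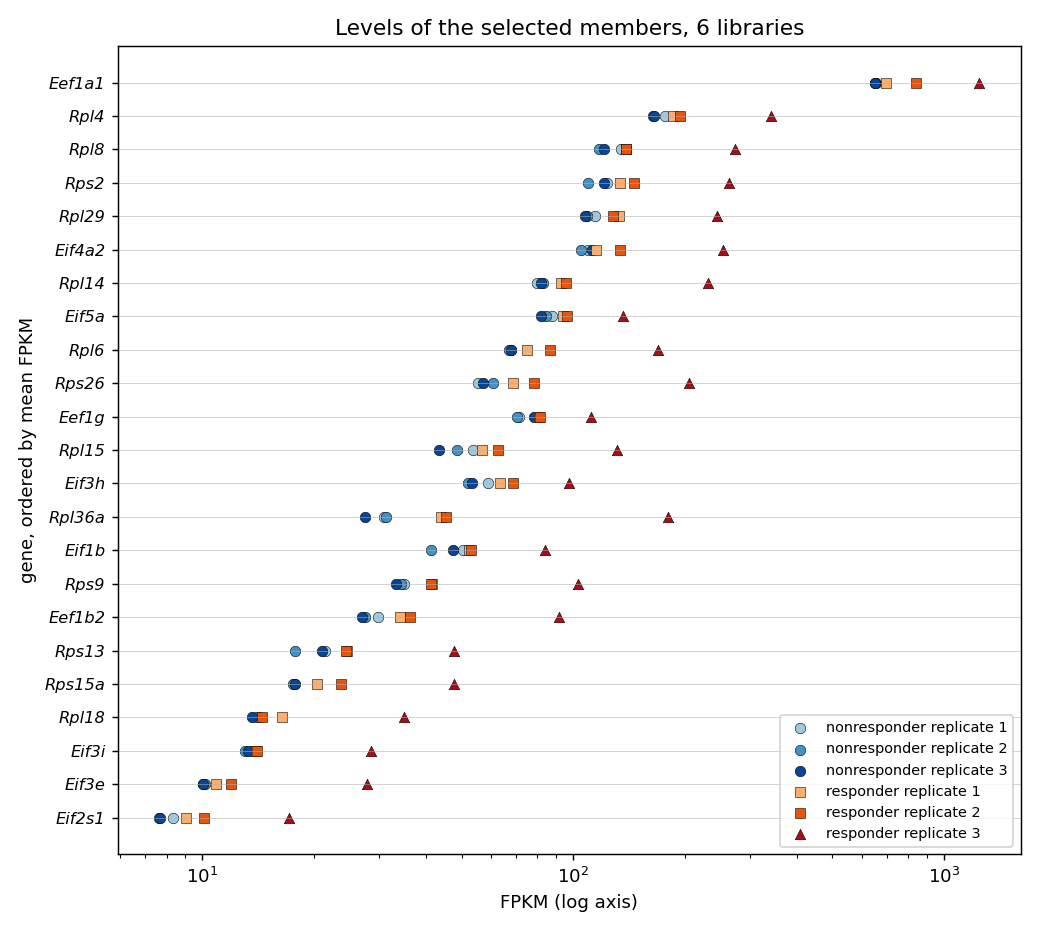
FPKM (log axis) of 23 members selected by abundance, by the authors' p-value and by the size of difference, 1 gene per line, in each of the 6 libraries. Genes are ordered by mean FPKM, from Eif2s1 at the bottom to Eef1a1 at the top, and responder replicate 3 is the rightmost point on each line.

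Among the elongation factors, Eef1a1 (chr9:78478449-78489151) was by far the most abundant member. It encodes the GTPase that carries aminoacyl-tRNA to the ribosome, and mature neurons are known to use its paralogue Eef1a2 as well, which was not analysed here. It stood at 657, 651 and 652 FPKM in the nonresponders and at 698, 842 and 1246 FPKM in the responders. Nonresponders were nearly equal, and the responders were spread. Means were 653 ± 3.16 FPKM (SD, n = 3) for the nonresponders and 929 ± 284 FPKM (SD, n = 3) for the responders. Eef1b2 (chr1:63176825-63180486), the exchange factor that reloads Eef1a1 with GTP, stood at 29.7, 27.5 and 26.9 FPKM in the nonresponders and at 34.1, 36.3 and 91.8 FPKM in the responders. Eef1g, the scaffold subunit of that exchange complex, stood at 71.2, 70.5 and 78.5 FPKM in the nonresponders and at 81.03, 81.3 and 112 FPKM in the responders. These partners of Eef1a1 thus differed in size, with responder replicate 3 at 3.27 times the nonresponder mean for Eef1b2 and 1.52 times for Eef1g. Eif5a, which carries the modified lysine hypusine and is counted here with elongation because it helps the ribosome past stalling sites, stood at 87.8, 84.6 and 81.9 FPKM in the nonresponders and at 93.9, 96.1 and 136 FPKM in the responders. In Eef1g the highest nonresponder came close to responder replicate 1, and the groups of all 4 genes did not overlap.

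Names beginning with Eef1 also brought in 2 partners that are no elongation factors. Eef1e1, a subunit of the complex of aminoacyl-tRNA synthetases, stood at 5.36, 4.47 and 5.11 FPKM in the nonresponders and at 6.53, 6.69 and 13.2 FPKM in the responders and had the smallest p-value of all members in the authors' deposited table, with an adjusted value of 0.119. Eef1akmt1, a lysine methyltransferase of Eef1a1, stood at 15.5, 14.5 and 12.4 FPKM in the nonresponders and at 16.2, 16.8 and 36.9 FPKM in the responders. Responder replicate 3 was 2.65 and 2.61 times their nonresponder means, and their groups did not overlap.

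The 13 initiation factor genes included subunits of the scaffold complex eIF3, of which Eif3e, Eif3h, Eif3i, Eif3j1 and Eif3k were listed. Eif3h stood at 58.95, 52.1 and 53.2 FPKM in the nonresponders and at 63.6, 68.9 and 97.1 FPKM in the responders. Eif3e stood at 10.02, 10.2 and 10.05 FPKM in the nonresponders and at 10.9, 11.98 and 27.7 FPKM in the responders. Eif3i stood at 13.6, 12.99 and 13.3 FPKM in the nonresponders and at 13.9, 14.05 and 28.5 FPKM in the responders. In Eif3h responder replicate 1 lay above the highest nonresponder by less than the nonresponder range, and responder replicate 2 by more. In Eif3i the mean of responder replicates 1 and 2 was 1.05 times that of the nonresponders. Eif3k and Eif3j1 were 2.55 and 1.5 times the nonresponder mean in responder replicate 3. The listed genes of this complex thus spanned folds of 1.5 to 2.75 in that library.

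The helicases and the cap-binding protein of the eIF4F complex formed the next group. Eif4a2 stood at 109.8, 105 and 113 FPKM in the nonresponders and at 115, 134 and 254 FPKM in the responders, and it was the most abundant initiation factor on the FPKM scale. Eif4a1, its close paralogue, stood at 44.4, 41.4 and 43.1 FPKM in the nonresponders and at 48.98, 51.7 and 83.3 FPKM in the responders. Eif4e, which binds the cap and is held back by proteins under mTOR control, stood at 19.1, 18.4 and 19.1 FPKM in the nonresponders and at 20.6, 24.02 and 28.2 FPKM in the responders. All responders lay above all nonresponders in each of these genes. Eif4e had one of the smaller folds in responder replicate 3, at 1.49, with 1.18 in the other responders.

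The subunits of eIF2, the factor that brings the initiator tRNA, were represented by Eif2s1, the target of the kinases of the integrated stress response, and by Eif2s2. Eif2s1 stood at 8.33, 7.64 and 7.69 FPKM in the nonresponders and at 9.03, 10.1 and 17.1 FPKM in the responders. Eif2s2 stood at 9.97, 8.62 and 9.01 FPKM in the nonresponders and at 9.87, 10.3 and 19.3 FPKM in the responders. Its nonresponder replicate 1 lay above responder replicate 1, while the groups of Eif2s1 did not overlap.

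The small factors that open the mRNA channel for scanning were Eif1b, Eif1a and Eif1ax. Eif1b stood at 50.3, 41.4 and 47.3 FPKM in the nonresponders and at 52.2, 52.9 and 84.1 FPKM in the responders. Eif1ax stood at 35.9, 33.6 and 35.1 FPKM in the nonresponders and at 37.4, 42.9 and 48.3 FPKM in the responders. Eif1a stood at 17.6, 15.01 and 15.6 FPKM in the nonresponders and at 15.5, 19.8 and 32.8 FPKM in the responders. Responder replicate 1 of Eif1a lay inside the nonresponder range, whereas those of Eif1b and Eif1ax were above it. Eif1ax had the smallest fold of all members in responder replicate 3, at 1.38. Eif1a and Eif1ax encode near-identical proteins, and reads from one may have been counted for the other.

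**Figure D3:**
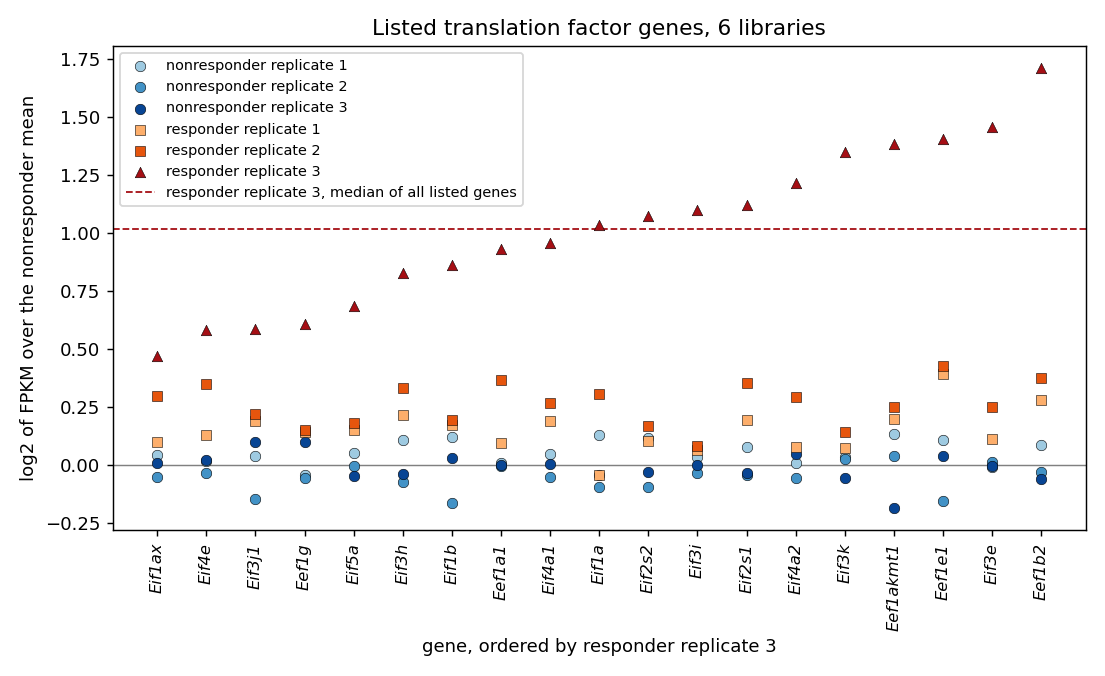
FPKM of each listed factor gene in each of the 6 libraries, as log2 over the nonresponder mean (y axis), with the genes ordered by responder replicate 3 (x axis). Points are single libraries. The dashed line at 1.02 is the median of all listed genes in responder replicate 3, and the factors lie on both sides of it, from 0.47 for Eif1ax to 1.71 for Eef1b2.

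Responder replicate 3 lay at least 2-fold above the nonresponder mean in 51.4% of the listed genes. It did so in all 27 ribosomal genes and in 10 of the 19 factor genes. As log2 of the ratio to the nonresponder mean, its median was 1.32 for ribosomal proteins, 1.03 for initiation factors, 0.81 for elongation factors and 1.02 for all listed genes. The same medians in responder replicates 1 and 2 were 0.24 and 0.30 for ribosomal proteins, 0.11 and 0.27 for initiation factors, 0.15 and 0.27 for elongation factors, and 0.23 and 0.31 for all listed genes. In the first 2 responders, then, the ribosomal proteins were at the level of the listed genes as a whole.

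Without responder replicate 3, both other responders lay above every nonresponder in 42 of the 46 members, beside 74.1% of the listed genes. The median log2 difference fell to 0.28 for ribosomal proteins, 0.19 for initiation factors and 0.20 for elongation factors, beside 0.26 for all listed genes. In the edgeR refit without it, 22 of 27 ribosomal genes and 11 of 19 factor genes had an unadjusted p below 0.05, beside 60.2% of the listed genes. An adjusted p below 0.05 was reached by 5.45% of the listed genes and by 6 members, all ribosomal. By edgeR these were Rpl36a (adjusted p = 8.02e-05), Rpl21 (0.0016), Rpl35a (0.0114), Rps26 (0.0384), Rpl23a (0.049) and Rpl26 (0.049). Since the p-values of these mice had put the genes into the table, the refit describes the spread and is no independent test.

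Measures of length and level went with the size of the difference among the ribosomal genes to differing degrees. Across these 27 genes, which share their libraries and are not independent replicates, Spearman's rho between coding length and log2 over the nonresponder mean was -0.55 in responder replicate 1, -0.65 in replicate 2 and -0.63 in replicate 3. Over the same genes rho was -0.40, -0.22 and -0.46 for the length of the main mRNA and -0.05, -0.08 and -0.04 for the deposited gene length. For the nonresponder level in FPKM, which is also the divisor of the log2 values, it was -0.40, -0.41 and -0.36. The other listed coding genes gave -0.44, -0.43 and -0.21 for that level. In the 19 factor genes rho for coding length was -0.07, -0.05 and 0.18. The 1209 other listed coding genes gave 0.04, 0.25 and -0.48, so that in these genes the direction differed between responder replicate 3 and the others. In that library, ribosomal genes with coding sequences under 500 bases had a median of 2.13 on the log2 scale (14 genes) and those of 500 up to 1000 bases 1.32 (11 genes), beside 1.30 and 1.01 for the other listed coding genes of these lengths (301 and 489 genes). The ribosomal medians were above those of other genes of like coding length in that library. Genes were not matched on mRNA length, for which rho in the other listed coding genes was 0.01, 0.25 and -0.63 in the 3 responders. The main mRNA had a median of 851 bases in the ribosomal genes and 1889 bases in the listed coding genes. The part of mRNA length, fragment size, RNA quality or library preparation in these differences was not tested. For GC content of the mRNA, rho in the ribosomal genes was -0.16, -0.63 and -0.53 in the 3 responders. In the factor genes it was 0.12, -0.49 and 0.04, and in the other listed coding genes 0.29, -0.18 and 0.08.

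**Figure D4:**
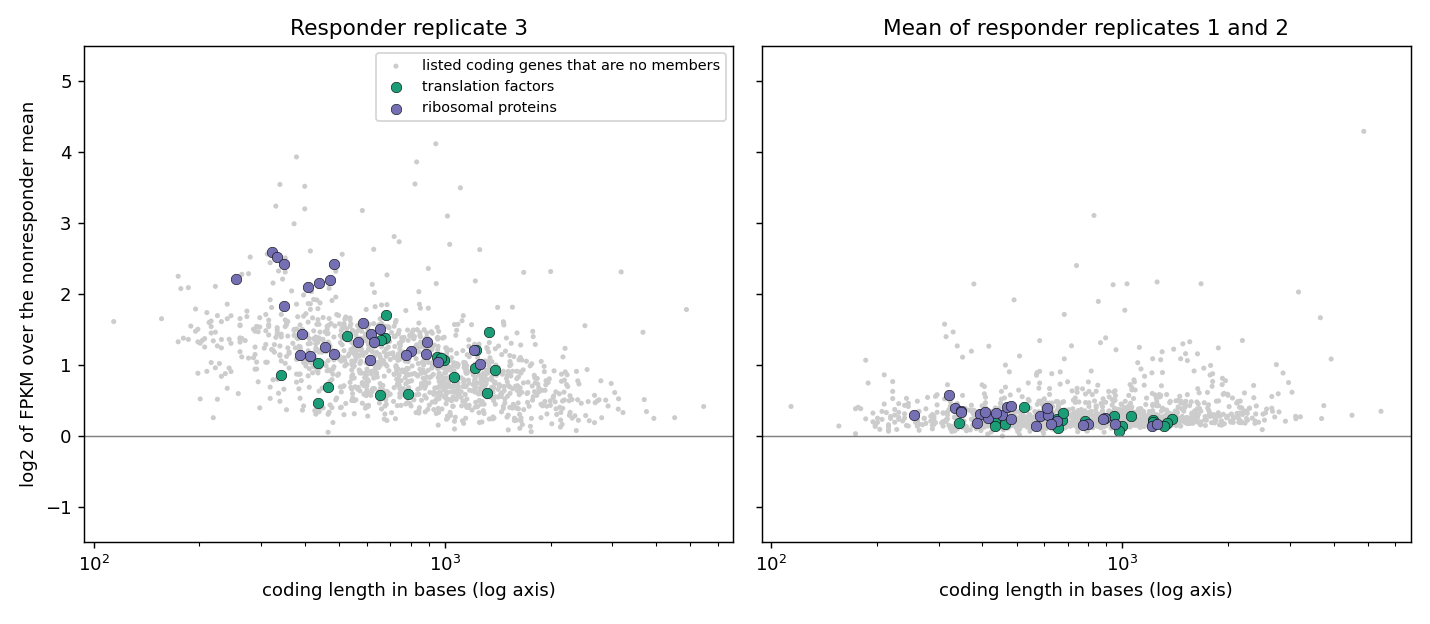
Coding length (x axis, log scale, bases) against log2 of FPKM over the nonresponder mean (y axis), for responder replicate 3 on the left and the mean of responder replicates 1 and 2 on the right. Each point is a gene. Ribosomal proteins under 500 bases have a median of 2.13 on the left, above the 1.30 of other listed coding genes of that length, and on the right all members lie at or below 0.58.

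Ribosomal protein genes have many processed pseudogenes, and reads that fit both may be counted for either. Copies at 90% identity or more over at least 80% of the coding sequence were found for 26 of the 27 ribosomal genes (median 8 copies, up to 76 for Rpl21) and for 13 of the 19 factor genes. Rpl8 was the ribosomal gene without a copy. Among the genes with copies the table itself also lists Gm10095, a copy of Rpl21 at 98.8% identity, and Gm12191, a copy of Rpl30 at 99.7%. Small nucleolar RNA genes lie inside 12 ribosomal and 3 factor genes, and genes on the other strand overlap 9 and 5, among them Ndufs1 beside Eef1b2 and Nkiras1 beside Rpl15. The strand setting of the counting is not given in the sources used here, so reads of such pairs cannot be told apart. Across the ribosomal genes, rho between the number of copies and log2 over the nonresponder mean was 0.21, 0.18 and 0.28 in the 3 responders.

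Other genes of the translation pathway were counted from 7 lists, and 0 of their listed genes had an adjusted p-value below 0.05 in the authors' deposited table. Over the whole table, the listed genes were 9.71% of the 14156 tests implied by the authors' adjusted p-values. Of 12 factors that bind the nascent chain or the ribosome, 6 were listed, including the subunits Srp9, Srp14 and Srp19 of the signal recognition particle and Btf3 and Naca, which form the nascent polypeptide-associated complex. Responder replicate 3 was 2.64 times the nonresponder mean for Btf3, 3.12 for Srp19, 2.88 for Srp14, 2.96 for Srp9, 2.52 for Naca and 1.39 for Serbp1, an mRNA-binding protein of the ribosome. For Btf3, Srp19, Srp14 and Srp9 the other responders were 1.24, 1.22, 1.20 and 1.16 times the nonresponder mean. The log2 differences of the 6 genes had a median of 0.79, and of 0.24 when responder replicate 3 was left out. The same medians were 0.70 and 0.28 for the ribosomal proteins and 0.57 and 0.26 for all listed genes. Of 19 further mRNAs known for a TOP tract, 11 were listed, of which Eef1a1, Eef1b2, Eef1g, Eif3e and Eif3h are members, and Btf3, Naca, Npm1, Nap1l1, Tpt1 and Snhg1 are not. Tpt1, a growth-associated protein, was 1.21 times the nonresponder mean in the first 2 responders and 2.09 times in responder replicate 3. For Npm1, a nucleolar chaperone, these were 1.18 and 2.34.

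Of 22 cytosolic aminoacyl-tRNA synthetases and their scaffold proteins, Rars, Aimp1, Dars, Gars, Hars and Aimp2 were listed, and their log2 differences had a median of 0.46, which was 0.19 when responder replicate 3 was left out. Responder replicate 3 was 1.75 times the nonresponder mean for Rars, 2.78 for Aimp1, 1.81 for Dars and 1.42 for Gars. Of 34 ribosome biogenesis genes, Nop10, Nhp2, Snu13, Wdr12, Nip7 and Polr1d were listed, and the first 4 were 3.46, 2.84, 2.34 and 1.73 times the nonresponder mean in responder replicate 3. Nop10, Nhp2 and Snu13 are small proteins of nucleolar RNA-protein particles. Of 20 genes of mTOR signalling and translation control, Paip1, a partner of the poly(A)-binding protein, and Rheb, the GTPase that activates mTOR, were listed at 1.65 and 2.24 times in responder replicate 3 and at 1.23 and 1.10 times in the others. Of 8 termination and recycling genes, Abce1, Denr and Mcts1 were listed at 1.54, 2.05 and 2.81 times. Of 7 genes of ribosomal proteins or proteins like them with other names, Rack1 was listed at 2.32 times and Rpl7l1 at 1.64 times. Mcts1 and Denr act as a pair, and without responder replicate 3 they were 1.05 and 1.08 times the nonresponder mean.

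Markers of cell types were summed where the table lists them. Listed genes are higher in responders by selection, so that direction is not a result for the markers either. None of 6 neuron, 6 oligodendrocyte, 5 endothelium and 5 red blood cell markers was listed, so the neuronal identity of the tissue could not be checked. Of 6 microglia markers, C1qa, C1qb, C1qc and Tmem119 were listed, and their summed FPKM was 65.1 to 74.3 in nonresponders and 85.8, 85.4 and 155 in the responders. Of 6 astrocyte markers 4 were listed, with sums of 192 to 217 FPKM in nonresponders and 245, 266 and 333 FPKM in responders. Of 7 leptomeninges markers 5 were listed, with sums of 7.45 to 8.98 FPKM in nonresponders and 13.7, 12.5 and 19.3 FPKM in responders, and of 5 choroid plexus markers Kl alone was listed, at 0.256 to 0.474 and 0.525 to 0.538 FPKM. The part of these cells in the differences of the ribosomal genes was not tested.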

How the data were processed

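Bulk polyA RNA of prefrontal cortex was measured in 6 mice, 3 nonresponders and 3 responders, grouped by the sample titles. Per the labels' protocols each library came from a different mouse, prepared with a SMARTER RNA kit. Per the submitters' processing notes the genome build was mm10. No aligner, counter, strand setting or statistical test is named (not given in the sources used here). Per the file headers, the authors deposited whole read counts and FPKM values per library, gene lengths, a log2 fold change (nonresponders over responders), a p-value and an adjusted p-value. Dividing a deposited count by its FPKM and its gene length gave the same library size for every gene of a library. The deposited table holds 1375 genes, all with a p-value below 0.05 and a log2 fold change below 0. The ranks implied by the adjusted p-values point to a Benjamini-Hochberg adjustment over 14156 tests, for which 450 genes give a whole rank within 0.01. A further 6 columns of values per sample match no label and were not used.

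Folds and log2 differences are ratios of group mean FPKM, responders over nonresponders, with no pseudocount. Counts of all listed genes were fitted with edgeR 4.0.16 (quasi-likelihood, robust, two-sided; group as the only term) with the authors' scale as library size, and adjusted over 14156 tests counting every gene outside the table as a test not passed. The step was tested on simulated data with 2-fold changes in both directions. No simulated library stood apart as responder replicate 3 did, so that test does not cover this feature of the data. DESeq2 1.42.0 was the alternative. Other alternatives were TMM or summed listed counts as scale, a count filter, a pseudocount of 1 FPKM, a minimum mean of 1 FPKM, a replicate block and leaving out each library. Depth over all genes is unknown, and 3 mice per group limit the precision. An exact permutation test of 3 against 3 cannot go below a two-sided p of 0.1, and none is reported.

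Values in every library are printed by rule for 24 members: in each role (large subunit, small subunit, initiation, elongation) the 3 most abundant, the 3 with the smallest deposited p-value, and those with the largest and smallest log2 difference without responder replicate 3. Of these, 1 is not reported here, nor is 1 gene of the related lists. Other members' values were chosen after they were seen. The members, the lists of related genes and the markers were chosen with earlier results of these data known. Coding lengths and pseudogene copies (blastn) come from GENCODE M21, in which 45 members had the deposited start, end and strand. Gene positions are those of the deposited table.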

Additional observations from a re-analysis of the deposited data

How the results depend on the processing

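The counts of members depended on the scaling, on the tool and on single libraries. In the edgeR refit 16 members had an unadjusted p below 0.05, beside 26.5% of the listed genes. This was 3 with TMM factors, 3 with the summed listed counts as library size and 14 with a count filter. DESeq2 gave 26 with the authors' scale, beside 42.5% of the listed genes, and 4 with its own size factors. Leaving out each library gave 0 to 38, with 0 without any nonresponder and 38, 35 and 33 without responder replicates 1, 2 and 3. The 33 stood beside 60.2% of the listed genes. No share of the listed genes is given for the other refits, so their counts are not a result about the members. At an adjusted p below 0.05 the edgeR count was 0 with all libraries, for the members and for all listed genes. For the members it was 0 to 6 when each library was left out. The 6 came without responder replicate 3, beside 5.45% of the listed genes (log2 difference 0.58 for Rpl36a and 0.35 for Rps26). At a limit of 0.2 on the adjusted p-value of the authors' deposited table, 17 members passed in place of 0, beside 27.3% of the listed genes. With the replicate block, 8 members had an unadjusted p below 0.05. The labels do not pair the mice, and the deviations of mice with the same number correlated at -0.063, -0.055 and -0.033.

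Groups did not overlap in 42 members, beside 73.5% of the listed genes. The count was 42 to 45 when each library was left out. Without responder replicate 3 it was 42, beside 74.1% of the listed genes. With TMM factors it was 6 and with the summed listed counts 5. No share of the listed genes is given for these scalings, so the fall is not a result about the members. Both scalings remove by construction the shift common to the listed genes. Under them the initiation median of 0.50 became -0.049 and -0.031 and the elongation median of 0.43 became -0.098 and -0.080. Leaving out each library gave medians of 0.28 to 0.92 (ribosomal), 0.19 to 0.68 (initiation) and 0.20 to 0.56 (elongation). With TMM factors, 8 of the 24 genes given by rule changed sign in edgeR: Eif3h (-0.040), Eef1a1 (-0.035), Rpl8 (-0.0057), Rpl4 (-0.047), Eif1b (-0.091), Eif5a (-0.16), Eif3i (-0.076) and Eef1g (-0.20). Depth over all genes is unknown, and a table selected by p-value limits what any of these refits can show.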
